A study of Homo sapiens with 6 samples.

Results

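KAT5 (also called TIP60) and the genes of 9 other core subunits of the NuA4 acetyltransferase complex were followed at the level of histone H4 acetylation (H4ac) over their own promoters, in cells in which KAT5 itself was targeted. The 10 genes are KAT5, EP400, TRRAP, EPC1, EPC2, ING3, DMAP1, MEAF6, MRGBP and MBTD1. They were chosen by name, and all H4ac regions were taken that the deposited annotation ties to them within 1000 bp of a start site. This gave 24 promoter regions in the table of the hairpin shTIP60-B and 23 in that of shTIP60-C, covering all 10 genes in both, of 11541 and 11549 genes with a promoter region. A further 13 and 10 regions lay farther away with one of these genes as the nearest. A peak common to the knockdown and control libraries is listed from each, so these counts hold overlapping copies of some places.

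NuA4 is the complex that places acetyl groups on the tails of histones H4 and H2A at active promoters and at DNA breaks, and in animals it also exchanges H2A.Z. KAT5 is its catalytic subunit, EPC1 or EPC2 bridges KAT5 to the nucleosome, and TRRAP and EP400 form the large scaffold and remodelling arms through which transcription factors such as MYC recruit it. ING3 reads trimethylated histone H3 lysine 4, and MBTD1 reads methylated histone H4. DMAP1, MEAF6 and MRGBP are smaller subunits, of which MEAF6 is shared with other acetyltransferases of the MYST family.

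The cells were H1975, an established human line of non-small cell lung cancer that carries mutant EGFR. All of them, the control included, received doxycycline at 0.5 ug/ml for 2 days to induce a hairpin: a control hairpin (shControl), or one of 2 hairpins against TIP60. There was 1 H4ac library and 1 input library per hairpin, 6 in all, so no value below could be checked against a replicate. Every p is a comparison of 2 libraries and not of 2 conditions. Whether a hairpin line was a clone or a pool is not given in the sources used here, and the input reads were not used. A hairpin acts on the transcript, so acetylation of the KAT5 promoter does not measure the knockdown.

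The 2 deposited tables each set 1 knockdown library against the same control library, so values against the control are not independent between the hairpins. M is the log2 of knockdown over control signal after the authors' rescaling, and A is the mean log2 signal. Read counts, M and p given for a region were copied from the authors' deposited table, as were coordinates, which are on the hg19 build. The parentheses after M give a 95% counting interval, which covers counting error only. The rescaling takes out any acetylation change shared by all regions, so each value is relative to other regions. Depth differed: the shTIP60-B table held 5508475 knockdown and 6706229 control reads in its 63299 regions, and that of shTIP60-C held 13429202 and 7043106 in 66546 regions. Of 10 epithelial and lung adenocarcinoma markers 8 had a promoter region in both tables, among them EPCAM, KRT8 and NKX2-1, while NAPSA and SFTPB had none. Of 8 markers of blood, endothelial and stromal cells only COL1A1 had one.

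Upstream sequence was available from the RefSeq promoter table (GRCh38.p14) for 8 of the 10 genes, with 9 promoters. The 5 printed here are those of KAT5, of EP400 and MEAF6, whose promoter ratios were among the lowest with shTIP60-B, and of the pair of EPC1 start sites, whose acetylation differed. Each line holds the 250 bases upstream of a start site, 5′ to 3′ on the gene's strand, with its GRCh38.p14 position, which cannot be set beside the hg19 regions below. Capitals mark matches, on either strand, to any of 4 motifs, each spelled out after the sequences.
KAT5, chr11:65712002-65712251, plus strand: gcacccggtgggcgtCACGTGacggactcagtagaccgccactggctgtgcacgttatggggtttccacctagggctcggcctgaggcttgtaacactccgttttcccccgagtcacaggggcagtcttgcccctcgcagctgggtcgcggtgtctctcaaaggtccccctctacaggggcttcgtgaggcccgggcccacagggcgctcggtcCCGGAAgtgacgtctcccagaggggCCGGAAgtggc
EP400, chr12:131949692-131949941, plus strand: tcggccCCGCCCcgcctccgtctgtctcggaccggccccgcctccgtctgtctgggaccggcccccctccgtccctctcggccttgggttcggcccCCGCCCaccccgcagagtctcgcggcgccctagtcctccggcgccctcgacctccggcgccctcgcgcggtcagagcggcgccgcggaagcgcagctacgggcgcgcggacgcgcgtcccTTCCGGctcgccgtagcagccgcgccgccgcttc
MEAF6, chr1:37514767-37515016, minus strand: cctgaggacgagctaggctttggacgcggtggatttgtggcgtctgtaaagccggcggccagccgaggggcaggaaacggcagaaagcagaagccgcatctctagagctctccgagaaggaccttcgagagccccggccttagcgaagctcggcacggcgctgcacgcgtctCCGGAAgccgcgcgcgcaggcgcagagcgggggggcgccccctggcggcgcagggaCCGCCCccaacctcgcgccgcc
EPC1, chr10:32347159-32347408, minus strand: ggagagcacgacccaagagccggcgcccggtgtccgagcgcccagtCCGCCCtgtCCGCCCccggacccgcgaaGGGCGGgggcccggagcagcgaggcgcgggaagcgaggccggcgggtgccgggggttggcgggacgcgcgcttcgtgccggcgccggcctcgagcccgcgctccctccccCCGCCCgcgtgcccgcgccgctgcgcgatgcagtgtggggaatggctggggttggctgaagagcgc
EPC1 upstream start site, chr10:32378770-32379019, minus strand: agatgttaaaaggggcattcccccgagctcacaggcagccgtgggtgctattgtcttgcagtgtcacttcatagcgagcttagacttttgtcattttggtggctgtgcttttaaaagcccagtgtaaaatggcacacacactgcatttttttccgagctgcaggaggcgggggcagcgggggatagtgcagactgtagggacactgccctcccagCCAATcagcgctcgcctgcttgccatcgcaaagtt

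The KAT5 window held 1 E-box, searched as the letters CACGTG. It was the only one of the 9 windows with that motif, which 6.34% of all 35116 promoters of that length hold. The same window held 2 copies of the core of the ETS motif, searched as CCGGAA, and neither of the other motifs. The ETS core, held by 14.5% of all promoters, was also found in the windows of EP400, DMAP1 and MEAF6. GC boxes, searched as the letters GGGCGG and held by 42.6% of all promoters, numbered 4 at the EPC1 start site of highest acetylation, 3 at MRGBP, 2 each at EP400 and EPC2 and 1 at MEAF6. The upstream EPC1 start site, KAT5, DMAP1 and MBTD1 had none. That upstream site had a CCAAT box instead, searched by those letters, as did DMAP1 and MBTD1, and 32.0% of all promoters hold one. The 9 windows had a median G+C content of 66.4% and 31 CpG sites, against 58% and 11 over all promoters. The upstream EPC1 start site was the lowest of the 9 on both, with 53.6% and 9 CpG sites. A match is a description of these letters and not a binding site.

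The 10 promoters held very different amounts of H4ac. Levels were compared at peaks of the control library, because the same 36034 control peaks appear in both tables and give a count in all 3 H4ac libraries. A level is given as reads per kb per 1000000 reads of that library in the control peaks, for the promoter control peak with the highest signal of each gene. EPC1 was the highest, at 121 in shControl, 132 with shTIP60-B and 131 with shTIP60-C, from 954, 808 and 1916 reads. Its control level stood at percentile 99.8 of 10775 genes with such a peak, whose median was 20.9. DMAP1 was the lowest, at 12.3, 9.90 and 10.8, from 27, 17 and 44 reads, at percentile 15.2. The span from DMAP1 to EPC1 in the control library was 9.88-fold.

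Between these ends, the control levels of the reader ING3, the bridging subunit EPC2 and KAT5 itself were 66.8, 61.5 and 55.5, followed by TRRAP at 39.5 and MBTD1 at 37.3. EP400 had 22.0, MEAF6 16.3 and MRGBP 15.3. Of the 9 pairs of neighbours in this order, 6 had overlapping counting intervals. The 3 that did not were EPC1 and ING3, KAT5 and TRRAP, and MBTD1 and EP400, so the genes fall into a single highest, 3 high, 2 middle and 4 low promoters beyond counting error. KAT5 stood at percentile 94.6. The 2 EPC paralogues, which occupy the same place in the complex, differed in level by the gap between 121 (114 to 129) and 61.5 (54.1 to 69.6) in the control library.

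**Figure D1:**
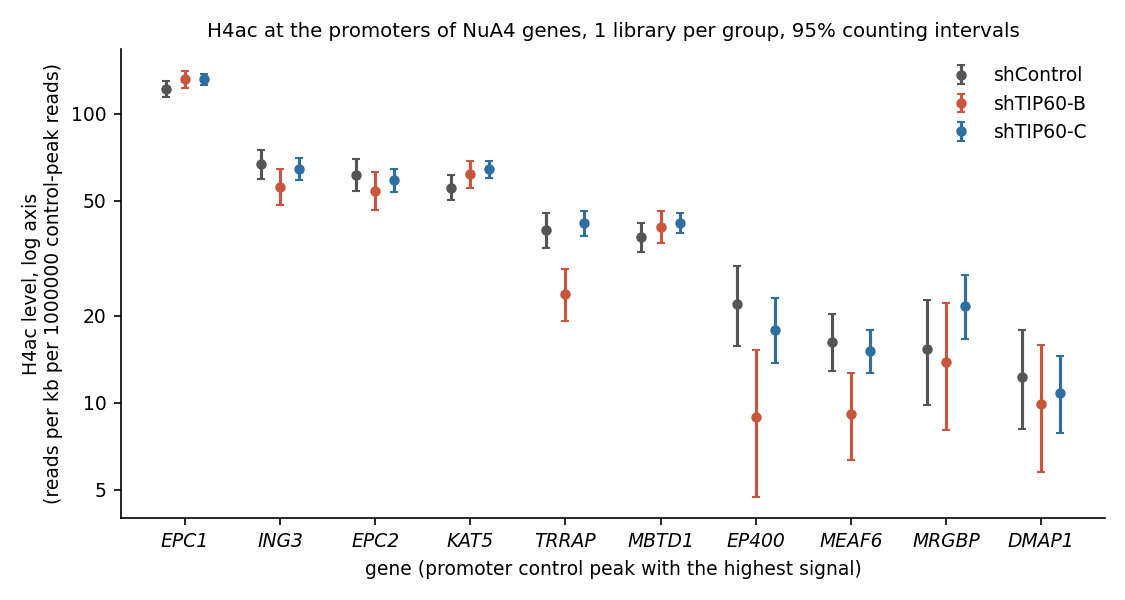
H4ac level (reads per kb per 1000000 reads in control peaks, log axis) at the promoter control peak of each gene, ordered by the control library, in shControl, shTIP60-B and shTIP60-C; points are single libraries and bars 95% counting intervals. EPC1 stands above all other genes in each library (121, 132 and 131), and the shTIP60-B point is the lowest of the 3 by the widest gap at EP400, TRRAP and MEAF6.

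The KAT5 promoter kept a high level of H4ac with both hairpins against its transcript. Its control peak (chromosome 11, 65478278 to 65480264, 1987 bp across the start site) had a level of 55.5 (50.2 to 61.2) in shControl, 64.4 (60.2 to 68.8) with shTIP60-C and 61.6 (55.3 to 68.4) with shTIP60-B. The control was the lowest of the 3, and its interval overlapped those of both knockdown libraries. At the slightly wider region that stands for the gene in each table, M was 0.20 (-0.01 to 0.41) with shTIP60-B, from 350 against 402 reads, with a deposited p of 0.054. With shTIP60-C it was 0.23 (0.06 to 0.41), from 882 against 405 reads, with a deposited p of 0.026. Its surroundings were also above 0: the median M of the 10 Mb window around KAT5 was 0.20 over 681 regions with shTIP60-B and 0.10 over 703 regions with shTIP60-C. Relative to the window, KAT5 stood at 0.00 and 0.13. By levels in the 3 libraries, the genes closest to KAT5 of 10772 ranked were SMYD5 at a log2 distance of 0.07, NFE2L2 at 0.10 and MSL2 at 0.10.

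None of the 10 genes passed at its promoter with either hairpin, where passing takes both a 2-fold or larger ratio and a deposited p no higher than 1e-05. A gene is represented here by its promoter region with the highest A in each table, which need not be the same region in both. Over all genes the rule called 4.75% with shTIP60-B (148 rose and 400 fell, of 11541) and 0.182% with shTIP60-C (21 of 11549), so 0 of 10 is near the background with each hairpin. A p of at most 1e-05 at any fold was reached by 1 of the 10, TRRAP with shTIP60-B, where 10.7% of all genes reached it. With shTIP60-C the lowest p among the 10 was the 0.026 of KAT5.

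The scaffold and remodelling subunits had some of the lowest ratios with shTIP60-B. The TRRAP promoter (chromosome 7, 98475581 to 98476987, over the start site and part of the first intron) held 95 shTIP60-B reads against 202 control reads, M = -0.85 (-1.21 to -0.49), at a deposited p of 1.5e-06. That is a 1.80-fold lower signal, short of the fold of 2. With shTIP60-C the region that stands for TRRAP held 411 against 204 reads, M = 0.10 (-0.15 to 0.35). On the level scale the same control peak had 39.5, 23.8 and 41.9 in shControl, shTIP60-B and shTIP60-C, so shTIP60-B stood apart and the other two overlapped. The 10 Mb window around TRRAP had a median M of -0.39 with shTIP60-B, and relative to it TRRAP stood at -0.45. The part of that stretch of chromosome in the TRRAP value was not tested.

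EP400, the SNF2-family ATPase of the complex, had the lowest ratio of the 10. It had few reads behind it, at a peak called in the control library and not in that of shTIP60-B. Its region just downstream of the start site (chromosome 12, 132434493 to 132435005, in the first intron) held 13 against 41 reads with shTIP60-B, M = -1.60 (-2.63 to -0.68), at a deposited p of 0.00049. The fold of 3.04 was past the threshold and the p was not. In the same table a shTIP60-B peak centred 564 bp upstream of the start site held 19 against 7 reads, M = 1.35 (0.04 to 2.84). Of these 2 libraries, the downstream region was a peak of the control only and the upstream one of shTIP60-B only. Each was thus listed through the library in which it is the higher. Together the 2 regions held 32 against 48 reads, a log2 ratio of -0.30 (-0.99 to 0.37) when scaled by table totals. At the downstream region shTIP60-C held 62 against 41 reads, M = -0.38 (-0.97 to 0.23). The region that stands for EP400 with shTIP60-C (132434392 to 132435205) held 70 against 44 reads, M = -0.30 (-0.86 to 0.28), and that table listed no upstream EP400 region.

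The bridging subunits had ratios on both sides of 0 at their main promoters, all within a 2-fold difference. The main EPC1 promoter (chromosome 10, 32634764 to 32637123) held 812 against 956 reads with shTIP60-B, M = 0.28 (0.14 to 0.41), at a deposited p of 2.6e-05. With shTIP60-C the region that stands for it (32634881 to 32637041) held 1916 against 954 reads, M = 0.14 (0.03 to 0.25). These were 2 of the 3 intervals among the 10 genes that lay wholly above 0, the other being KAT5 with shTIP60-C. Scaled by table totals, EPC1 came to 0.05 with shTIP60-B, since the authors' rescaling grows with signal in that table, from 0.01 in the 25% of regions lowest in A to 0.31 in the highest 25%. EPC2 (chromosome 2, 149401822 to 149402939) held 172 against 250 reads, M = -0.23 (-0.52 to 0.06). At the same region shTIP60-C held 444 against 250 reads, M = -0.08 (-0.31 to 0.15). The region that stands for EPC2 with shTIP60-C (149401878 to 149403555) reaches into the first intron and held 478 against 277 reads, M = -0.12 (-0.34 to 0.10).

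The main EPC1 start also has the antisense gene EPC1-AS1 starting within 1 kb on the opposite strand, and H4ac reads carry no strand. EPC1 has an upstream start site whose H4ac differed from the main one. The control peak there (chromosome 10, 32667841 to 32669010) had levels of 15.5, 8.12 and 11.3 in shControl, shTIP60-B and shTIP60-C, against 121, 132 and 131 at the main start site. It held 27 against 66 reads with shTIP60-B, M = -1.19 (-1.89 to -0.52), at a deposited p of 0.00031. With shTIP60-C it held 89 against 66 reads, M = -0.53 (-1.00 to -0.04), at a deposited p of 0.1. Both knockdown libraries were below the control at the upstream site and above it at the main site, and both comparisons use the same control library. Narrower copies of the upstream peak, called in the knockdown libraries, gave weaker ratios with intervals that included both signs. The copy with shTIP60-B held 24 against 36 reads, M = -0.51 (-1.32 to 0.28). That with shTIP60-C held 74 against 50 reads, M = -0.40 (-0.94 to 0.15). EPC2 likewise had a weaker region in its first intron, centred 794 bp downstream, with 21 against 23 reads and M = -0.09 (-1.01 to 0.83) with shTIP60-B. With shTIP60-C it held 27 against 23 reads, M = -0.76 (-1.62 to 0.11).

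The histone readers had ratios within a 2-fold difference, and only the interval of ING3 with shTIP60-B left out 0. ING3 (chromosome 7, 120590269 to 120591445) held 187 against 286 reads with shTIP60-B, M = -0.29 (-0.56 to -0.02), at a deposited p of 0.041. Its 10 Mb window had a median of -0.49, below ING3 itself, and relative to the window ING3 stood at 0.20. At the same region shTIP60-C held 512 against 286 reads, M = -0.07 (-0.28 to 0.15). MBTD1 (chromosome 17, 49336315 to 49338499) held 251 against 290 reads with shTIP60-B, M = 0.15 (-0.10 to 0.40). The region that stands for MBTD1 with shTIP60-C (49336566 to 49338707) held 607 against 291 reads, M = 0.16 (-0.04 to 0.37). The MBTD1 promoter also covers the start of UTP18, a ribosome biogenesis gene on the opposite strand, and 1 of the shTIP60-C regions over it is annotated to UTP18, with M = 0.16. H4ac reads there cannot be divided between the 2 genes.

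The small subunits had low levels and wide intervals. MEAF6 (chromosome 1, 37979683 to 37981032) held 35 shTIP60-B against 80 control reads, M = -1.07 (-1.68 to -0.48), at a deposited p of 0.00037. With shTIP60-C the same region held 138 against 80 reads, M = -0.16 (-0.57 to 0.26). On the level scale it had 16.3 in shControl, 15.2 with shTIP60-C and 9.12 with shTIP60-B, the only low one of the 3. Relative to its 10 Mb window, MEAF6 stood at -0.89 with shTIP60-B. The narrower MEAF6 region called in the shTIP60-B library (37980365 to 37981058) held 30 against 54 reads, M = -0.74 (-1.44 to -0.07). DMAP1 (chromosome 1, 44678729 to 44679332) held 17 against 27 reads with shTIP60-B, M = -0.62 (-1.59 to 0.30). It was called as a peak in the control library and not in that of shTIP60-B. At the same region shTIP60-C held 44 against 27 reads, M = -0.29 (-1.01 to 0.46). The wider region that stands for DMAP1 with shTIP60-C (44678676 to 44679577) held 62 against 30 reads, M = 0.06 (-0.59 to 0.74). All 3 DMAP1 intervals spanned 0, so no difference was detectable there at this depth.

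At MRGBP the value depended on which part of the promoter was counted. The region that stands for it with shTIP60-B (chromosome 20, 61426687 to 61427302, centred 763 bp upstream) held 31 against 69 reads, M = -1.04 (-1.70 to -0.41), at a deposited p of 0.0012. A region over the start site, centred 162 bp downstream, held 17 against 24 reads, M = -0.46 (-1.45 to 0.50). With shTIP60-C a single region of 2136 bp covered both, with 276 against 131 reads and M = 0.15 (-0.16 to 0.46). The start-site region by itself held 63 against 24 reads with this hairpin, M = 0.40 (-0.30 to 1.14). Chromosome 20 as a whole had a median M of -0.69 over 1758 regions with shTIP60-B and 0.01 over 2022 regions with shTIP60-C. Relative to its 10 Mb window, whose median was -0.70, MRGBP stood at -0.34 with shTIP60-B.

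**Figure D2:**
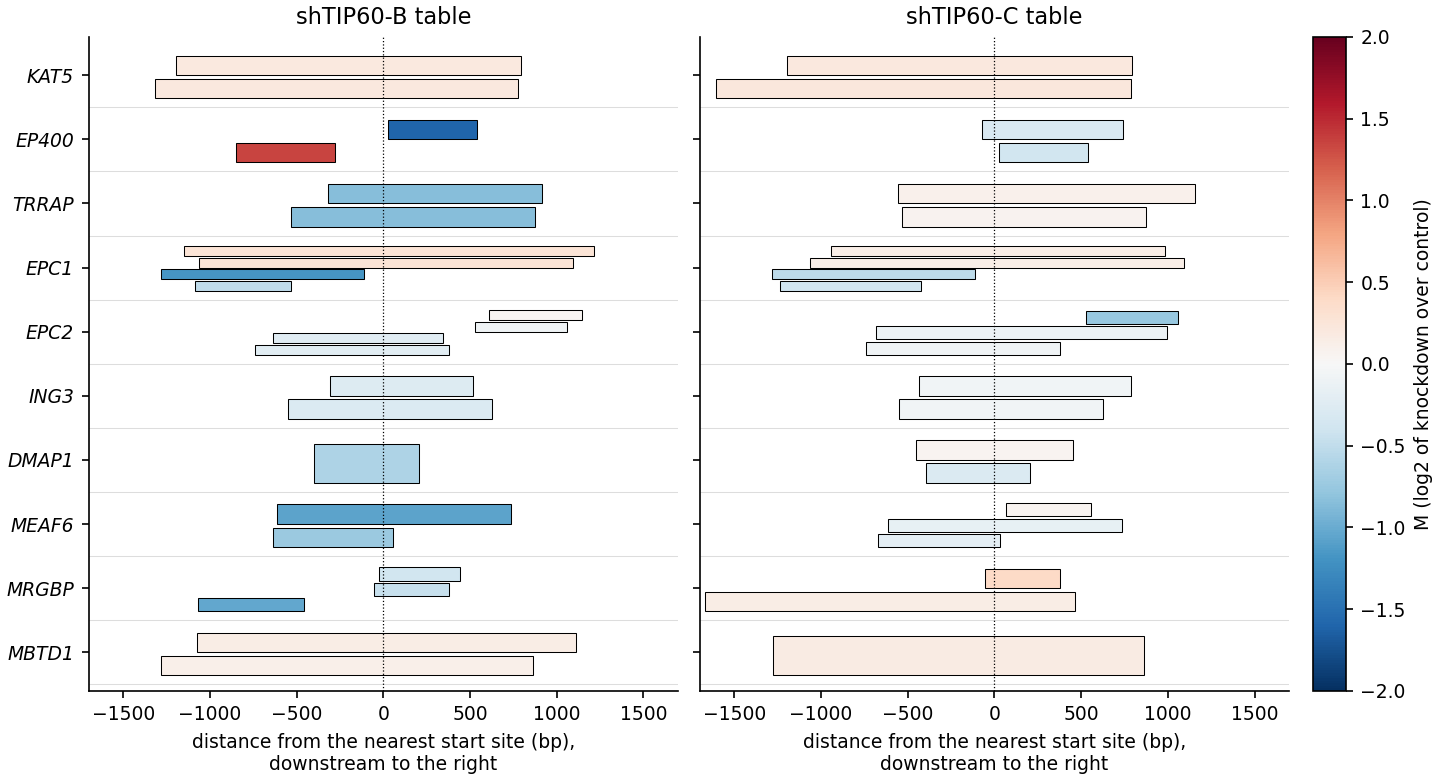
Every promoter region of the 10 genes in the shTIP60-B table (left) and the shTIP60-C table (right), drawn to scale by the distance of its centre from the nearest start site (bp) and coloured by M (log2 of knockdown over control). EP400 with shTIP60-B has an upstream region at M = 1.35 and a downstream one at M = -1.60, and the pair of bluer EPC1 bars belongs to the upstream start site.

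As a group, the genes had lower ratios with shTIP60-B than with shTIP60-C, and the lowest were at promoters of low signal. With shTIP60-B their median M was -0.46, against -0.12 over all 11541 genes, whose quartiles were -0.53 and 0.25. The median of the 10 genes came to -0.26 without the 25% of regions lowest in signal, which leaves 8 genes, and to -0.28 with the mean of each gene's promoter regions. There were 3 genes above 0 and 7 below, and 58.7% of all genes were below 0. The interval lay wholly below 0 at 5 genes (EP400, TRRAP, ING3, MEAF6 and MRGBP) and wholly above it at 1 (EPC1), where 27.6% and 16.3% of all genes had such intervals. The 5 genes of lowest A had a median of -1.04 and the 5 of highest A one of 0.15. Over all genes M was also lower at lower signal in this table. The median was -0.59 in the A decile of EP400 and DMAP1, -0.21 in those of MEAF6 and MRGBP, and 0.08 in that of KAT5 and EPC1. Against these medians DMAP1, at -0.62, stood near genes of its own signal. By the regions that stand for them, EP400, MEAF6, MRGBP and TRRAP, whose decile was at -0.10, were lower than theirs. ING3 at -0.29 and EPC2 at -0.23 were also below their decile median of -0.06, which lay within their counting intervals. The EP400 region was listed as a peak of the control library and not of shTIP60-B. With the M of both its regions averaged, EP400 was at -0.13, above -0.59. Their summed reads gave -0.30 when scaled by table totals, which is not the scale of these medians. By table totals the downstream EP400 region alone was at -1.37, against M = -1.60. MRGBP was at -0.46 at its start-site region. Relative to 10 Mb windows, which could be had for 9 genes because that of EPC2 held 29 regions, 4 were above 0 and 5 below, with a median of -0.34.

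With shTIP60-C, whose library was the deeper, the same promoters lay close to 0. Their median M was 0.08, against 0.00 over all genes, with 6 above 0 and 4 below. It turned to -0.08 with the mean of each gene's promoter regions, and came to 0.00 without knockdown copies of common regions. The lowest was EP400 at -0.30 and the highest KAT5 at 0.23. Of the intervals, 2 lay wholly above 0 (KAT5 and EPC1), none wholly below and 8 spanned it; of all genes 14.3% lay wholly above and 14% wholly below. The 5 genes of lowest A had a median of 0.06 and the 5 of highest A one of 0.14.

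**Figure D3:**
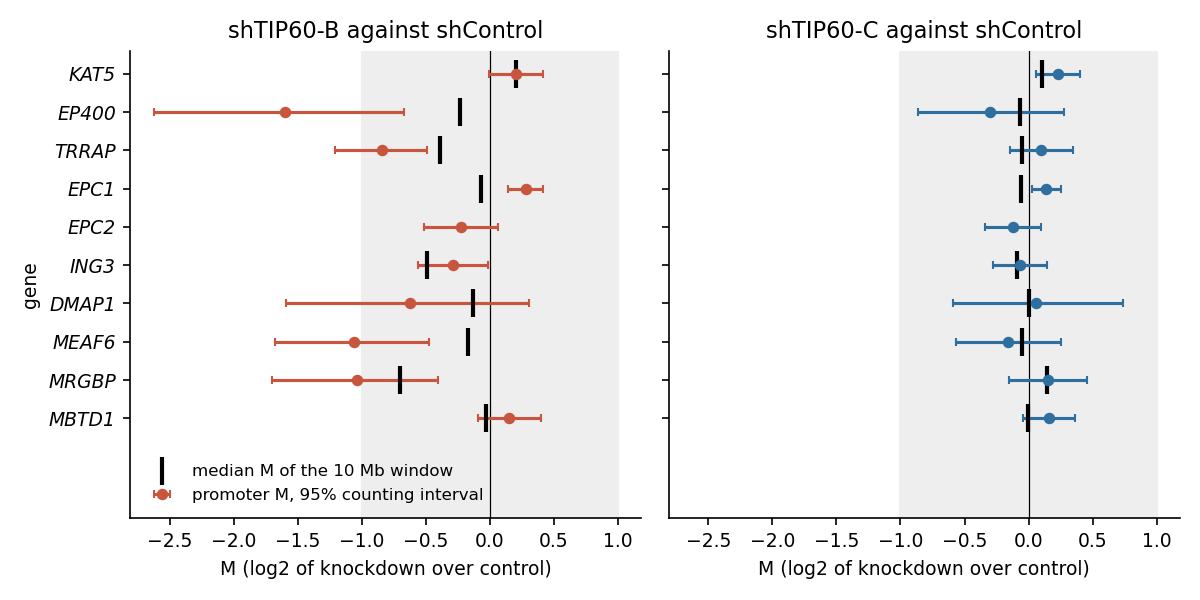
M (log2 of knockdown over control) at the promoter of each gene with its 95% counting interval, for shTIP60-B (left) and shTIP60-C (right); black ticks are the median M of the 10 Mb window (none for EPC2), and the grey band marks less than a 2-fold difference. With shTIP60-B, EP400, MEAF6 and MRGBP lie outside the band at -1.60, -1.07 and -1.04, and with shTIP60-C all 10 lie inside it.

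**Figure D4:**
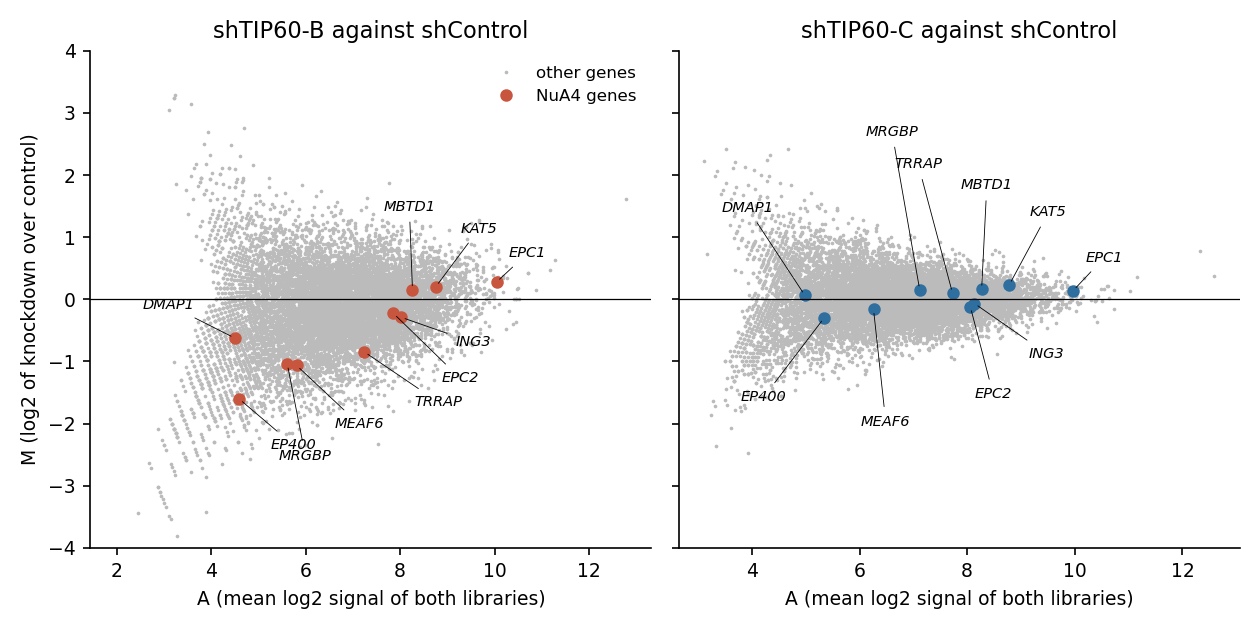
M (log2 of knockdown over control) against A (mean log2 signal of both libraries) for all genes with a promoter region (grey) and the 10 NuA4 genes (coloured, labelled), for shTIP60-B (left) and shTIP60-C (right). In the left panel the 5 NuA4 genes of lowest A all lie below 0, at a median of -1.04, where all genes of like signal also have medians below 0 (from -0.59 to -0.10 by decile).

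The 2 knockdown libraries were also set against each other at the same control peaks, which leaves the control library's reads out of the ratio. Over all 10775 genes the median log2 of shTIP60-B over shTIP60-C was -0.05, with quartiles of -0.37 and 0.25. At 9 of the 10 genes shTIP60-B was the lower, with a median of -0.17, where 54.6% of all genes were below 0. The interval lay wholly below 0 at 3 of them and wholly above it at 0, where 22.2% and 15.9% of all genes had such intervals. TRRAP was at -0.82 (-1.16 to -0.49), from 95 and 398 reads. EP400 was at -1.01 (-1.99 to -0.13), from 13 and 62 reads. MEAF6 was at -0.73 (-1.31 to -0.19), from 35 and 138 reads.

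The intervals of the other 7 genes spanned 0. EPC1 was at 0.00 (-0.12 to 0.12) and KAT5 at -0.06 (-0.25 to 0.12), the narrowest of the 10. With each table's own region, per length, EP400 instead came to -0.48 and TRRAP to -0.54, both nearer 0, and MEAF6 to -0.69. In that form KAT5 came to 0.15, EPC2 moved from -0.12 to 0.40 and MRGBP from -0.64 to -0.07. Taken as the difference of the deposited M, EPC1 came to 0.13. DMAP1, at -0.13 (-1.03 to 0.71), and MRGBP, at -0.64 (-1.51 to 0.15), were much less precise.

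**Figure D5:**
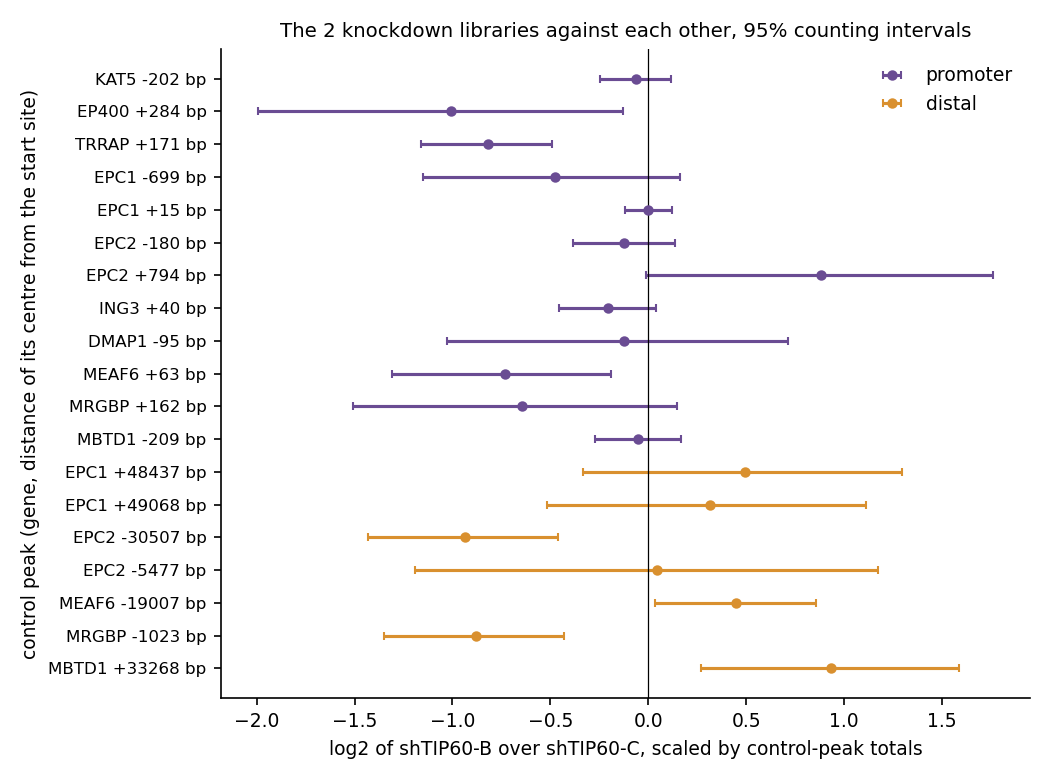
Log2 of shTIP60-B over shTIP60-C reads, scaled by control-peak totals, at every control peak tied to the 10 genes, with 95% counting intervals; promoter peaks are violet and distal peaks orange, named by gene and distance from the start site. TRRAP, EP400 and MEAF6 lie below 0 with their intervals, as do the distal peaks of EPC2 at -0.93 and MRGBP at -0.88, while distal peaks of MBTD1 at 0.93 and MEAF6 at 0.45 lie above 0 with theirs.

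Of the distal regions nearest these genes, overlapping copies included, 0 of 13 passed with shTIP60-B and 0 of 10 with shTIP60-C. Over all distal regions, copies likewise included, 5.74% of 40667 and 0.343% of 43139 did. The 13 and 10 regions belonged to EPC1, EPC2, MEAF6, MRGBP and MBTD1. No distal region was tied to KAT5, EP400, TRRAP, ING3 or DMAP1. The distal region lowest with both hairpins lay in an intron of EPC1 (chromosome 10, 32586626 to 32587191), 49068 bp downstream of the start site. It held 21 against 53 reads with shTIP60-B, M = -1.26 (-2.06 to -0.50). The shTIP60-C count was 40 against 53, M = -1.37 (-2.00 to -0.75). Its deposited p was 0.0011 and 0.00039, and both ratios use the same 53 control reads. The knockdown libraries did not separate there, at a log2 of shTIP60-B over shTIP60-C of 0.32 (-0.52 to 1.11). A wider copy called in the shTIP60-B library (32586572 to 32587524) held 38 against 65 reads, M = -0.64 (-1.26 to -0.04). That copy reaches into a neighbouring EPC1 peak (32587306 to 32587772). At the neighbour M was 0.48 (-0.51 to 1.51) in the table of shTIP60-B. In the other table it was 0.19 (-0.70 to 1.13). The copy of the lowest region called in the shTIP60-C library kept M = -1.37.

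Other distal regions differed between the hairpins in both directions. An intergenic region 30507 bp upstream of EPC2 held 45 against 102 reads with shTIP60-B, M = -1.03 (-1.57 to -0.51). The shTIP60-C count was 204 against 102, M = 0.06 (-0.29 to 0.42). A region centred 1023 bp upstream of MRGBP, just outside the promoter limit, spans 61425811 to 61427657 on chromosome 20. It contains the region that stands for MRGBP with shTIP60-B and overlaps that with shTIP60-C. Its values therefore share reads with the promoter values and are not a separate result. It held 50 against 114 reads with shTIP60-B, M = -1.02 (-1.53 to -0.53). The shTIP60-C count was 218 against 114, M = 0.00 (-0.33 to 0.34). The promoter region closest to that limit on the inside lay 876 bp downstream of the EPC2 start site and had M = 0.05 (-0.88 to 0.97) with shTIP60-B. In an intron of MBTD1, 33268 bp downstream, shTIP60-B was instead the higher, with 37 against 22 reads and M = 0.84 (0.04 to 1.67), against 46 and 22 reads and M = 0.06 (-0.70 to 0.87) with shTIP60-C. A region 19007 bp upstream of MEAF6 was lower in shTIP60-C, with 139 against 113 reads and M = -0.64 (-1.01 to -0.27), than in shTIP60-B, with 80 against 113 reads and M = -0.28 (-0.71 to 0.14). The log2 of shTIP60-B over shTIP60-C was 0.45 (0.03 to 0.86) there and 0.93 (0.27 to 1.59) at the MBTD1 region. The highest distal ratio rested on few reads, at a region 15546 bp upstream of MEAF6 with 18 against 5 reads in the shTIP60-B table, M = 1.68 (0.20 to 3.47). It was a peak of the shTIP60-B library only, so it was listed through the library in which it is the higher. Another peak of the shTIP60-B library only, 135370 bp upstream of EPC2, held 31 against 14 reads, M = 1.18 (0.23 to 2.21), so its nearest start site was far away.

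Genes of modules that NuA4 shares with other complexes gave no call either. Of 9 such genes 7 had a promoter region in both tables, and 0 passed with each hairpin, where 4.75% and 0.182% of all genes did. Their median M was -0.26 with shTIP60-B and -0.21 with shTIP60-C, against -0.12 and 0.00 over all genes. With shTIP60-B the lowest was VPS72, the H2A.Z-binding subunit, at -1.13 (-1.75 to -0.53), and the highest ACTL6A, an actin-related protein of chromatin complexes, at 0.86 (0.48 to 1.24). With shTIP60-C the lowest was MORF4L2, a paralogue of the chromodomain subunit MORF4L1, at -1.16 (-1.69 to -0.64), and the highest of the 7 was ACTL6A at 0.26 (-0.09 to 0.62). RUVBL2, with a promoter region in the shTIP60-C table alone, had 0.49 (-0.31 to 1.35). Among the 12 other MYST acetyltransferases and their partners, all measured in both tables, 0 passed with either hairpin, against the same shares of all genes, and the medians were -0.05 and -0.01. KAT7, which acetylates histones H3 and H4 in its own complexes, was the lowest with both, at -0.78 (-1.15 to -0.43) and -0.50 (-0.76 to -0.22). The highest were ING4 at 0.66 (-0.07 to 1.41) with shTIP60-B and JADE3 at 1.14 (0.65 to 1.67) with shTIP60-C, where 176 against 41 reads gave a deposited p of 1.58e-05.

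SAGA, the other large complex that contains TRRAP, had 1 call. Of 15 SAGA genes 10 had a promoter region in both tables, and 1 fell and 0 rose with shTIP60-B, where 4.75% of all genes passed and 3.47% fell, so that 1 of 10 is near the background. With shTIP60-C 0 passed. The one that fell was USP22, the deubiquitinase of the complex, with 153 shTIP60-B against 379 control reads, M = -1.01 (-1.29 to -0.73) and a deposited p of 4.25e-15. With shTIP60-C USP22 held 474 against 379 reads, M = -0.58 (-0.78 to -0.38), the lowest SAGA ratio there too, from the same control library. The SAGA medians were -0.37 and -0.31. KAT2A, the catalytic subunit, was the highest with both hairpins, at 0.21 (-0.20 to 0.61) and 0.30 (-0.03 to 0.64).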

How the data were processed

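H4ac ChIP-seq of H1975 cells was deposited as 2 tables, each with 1 knockdown library against shControl. Cells were crosslinked for 10 min in 1% formaldehyde and libraries read as 75 bp pairs, per the labels' protocols. Bowtie2, MACS 1.4.2 and hg19 are named per the submitters' processing notes. Per the file headers, the deposited values hold whole-number read counts, the rescaled log2 ratio M and mean log2 signal A, and a -log10 p-value. The highest deposited p is 0.5. An infinite p (11 regions with shTIP60-B, 3 with shTIP60-C) counted as past the threshold and a missing one (11 and 1) as not.

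Gene names and distances came from the deposited HOMER annotation. Computed here, with Python 3.11.15, numpy 2.4.6, pandas 2.3.3 and scipy 1.17.1, were promoter classes, gene representatives, levels, exact Clopper-Pearson intervals at 95% (shifted by the authors' rescaling) and 10 Mb window medians (at least 50 regions). The interval code was tested on simulated data. A region held a median of 49 shTIP60-B and 57 control reads in one table, and of 111 shTIP60-C and 57 control reads in the other, which makes shTIP60-C ratios more precise. Lists are described by counts and medians; named list genes are those that passed and each list's lowest and highest among those measured in both tables. The 10 genes and the lists were chosen with earlier results of these data known.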

Additional observations from a re-analysis of the deposited data

Results flagged for a closer look

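At 3 control peaks the hairpins had M on opposite sides of 0 and a counting interval between the knockdown libraries that left out 0. The shTIP60-C values were all close to 0 with intervals that spanned it, so their sign is within counting error. With 1 library per hairpin the difference between the hairpins was not tested. Over all 10775 genes with a promoter control peak, such an interval left out 0 at 38.1%, whatever the signs of M. The share of all control peaks that met both conditions was not computed, so the flagged peaks cannot be called unusual. The TRRAP promoter peak had M = -0.85 with shTIP60-B and 0.06 with shTIP60-C, and a log2 of shTIP60-B over shTIP60-C of -0.82. The peak 30507 bp upstream of EPC2 had -1.03 and 0.06, and -0.93 between them. The peak 1023 bp upstream of MRGBP had -1.02 and 0.00, and -0.88 between them. This peak overlaps the regions that stand for the MRGBP promoter, so it shares reads with them. MRGBP and TRRAP lie in 10 Mb windows with a median M of -0.70 and -0.39 with shTIP60-B; the window of EPC2 held too few regions for a value.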

How the results depend on the processing

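With 1 library per group no replicate could be left out, and no paired analysis was possible because the labels give 1 sample per group. No alternative scaling, promoter limit or signal filter made any of the 10 genes pass with either hairpin. In the scaling and centring alternatives the deposited p was kept, so only TRRAP with shTIP60-B, at 1.5e-06, could have passed by them. For the other genes that outcome was fixed in advance and says nothing about robustness. With shTIP60-B a fold threshold of 1.5 let 1 gene pass (TRRAP, where 9.38% of all genes did), and a p threshold of 0.001 let 2 pass (EP400 and MEAF6, where 7.88% did) and 2 distal regions (EPC2 and MRGBP, where 11.4% of all distal regions did). With shTIP60-C an exact binomial p, and likewise a p of 0.001, let 2 distal regions pass, overlapping copies of the EPC1 intron region, where 0.999% and 1.79% of all distal regions did. All promoter regions that passed numbered 928 with shTIP60-B, and 545 centred in 10 Mb windows, 552 without knockdown copies of common regions, 1887 at a fold of 1.5 and 1560 at p 0.001. With shTIP60-C they numbered 31, and 20 without those copies, 85 by exact binomial p, 126 at a fold of 1.5 and 145 at p 0.001. The count of genes whose shTIP60-B to shTIP60-C interval left out 0 was 3, and 5 when taken from the difference of the deposited M. That form added MRGBP below 0, at -0.86, and EPC1 above it, at 0.13. With each table's own region the count was again 3, where EPC2, at 0.40, lay above 0 and EP400 was no longer counted. Of 78 recomputed promoter values with shTIP60-B, 7 left their counting interval and 2 changed sign: ING3 to 0.20 when centred in windows, and EPC1 to -0.29 when its 4 promoter regions were averaged. Averaging also took EP400 to -0.13; the sum of its 2 regions was an alternative chosen after seeing the data. With shTIP60-C 1 of 79 left its interval, EPC1 at -0.16 when averaged. There 4 values, of DMAP1, EPC1 and ING3, changed sign. Few reads limit EP400, DMAP1 and MRGBP the most. The cause of these shifts was not tested.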
